A study of Mus musculus with 34 samples.

Results

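The sagittal series cut a single newborn mouse brain from one side to the other, and the comparison described here set its 3 medial fractions (05, 06 and 07) against its 4 lateral fractions (01 and 02 on one side, 10 and 11 on the other), 7 of the 34 arrays of the series. The fractions were chosen by their number in the sample titles. All 7 came from the same male C57BL/6J mouse, aged 3 days and untreated, so both groups share genotype, age and animal. Each fraction was 100 slices of 5 micron, a width of 500 micron, and fractions 01 and 11 each joined 2 such cuts. A fraction was measured on 1 single-colour array, with no repeat array and no second brain cut in this plane, so the p-values below measure the spread between neighbouring positions in 1 brain and say nothing about other mice. The labels do not state where the midline lay, nor on which side the count began.

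The middle of a mouse brain and its flanks hold different parts. Along the midline lie the hypothalamus, the thalamus with the habenula, the septum, the midbrain with its dopamine neurons, the raphe nuclei that make serotonin, and the hindbrain, and in front of them the olfactory bulbs. Towards the sides most of the tissue is cerebral cortex, with the striatum, the amygdala and the piriform cortex beneath it and the meninges over it. The comparison asks which transcripts follow that layout at postnatal day 3. In bulk tissue, fewer cells of a type and less RNA per cell cannot be told apart.

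Values are the deposited log2 values, in which 0 is close to the 75th percentile of the array, and a difference is the medial mean minus the lateral mean on that log2 scale, with its standard error. A probe entered the test when its spots were flagged well above background on at least 2 of the 7 arrays, which kept 33005 of 43199 probes, 27960 of them detected on all 7. Just inside that limit lay 1225 probes detected on exactly 2 arrays, and just outside it 3413 detected on exactly 1. A probe was called when limma's Benjamini-Hochberg adjusted p was under 0.05 and both lateral sides lay on the same side of the medial mean. The lateral arrays were the dimmer ones: their log2 75th percentile of signal ran from 8.34 to 8.80 against 8.93 to 9.12 medially, and 32316 to 35141 of the 59305 spots were well above background laterally against 34623 to 35479 medially. The part of that brightness in the results was not tested. The arrays lay on several slides. Fraction 02 shared a slide with all 3 medial fractions, fraction 01 lay on another and fractions 10 and 11 on a further one.

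Large medial differences were found for genes of several kinds. The transcription factors Foxa1, Foxa2, Hmx3, Pou4f2 and Foxb1, the serotonin genes Tph2 and Slc6a4 and the peptide genes Avp and Pmch were among the 15 genes of largest medial excess, whose differences ran from 4.51 to 5.99 on the log2 scale. Many of their lateral values were near or below the detection limit, and after a normexp background correction the 15 sizes ran from 1.30 to 3.69, with 13 of them smaller by over 1.5 times. Ms4a15, of a family of membrane-spanning proteins, stood at 0.37, -0.12 and -0.51 in fractions 05, 06 and 07 and at -6.83, -7.07, -5.34 and -4.97 in fractions 01, 02, 10 and 11. No lateral array detected it, so on the deposited scale its medial level was at least 28.8-fold higher (adjusted p = 0.00319). It was called under all 18 other settings. Every at-least fold given here is a bound for the deposited values only. After normexp the differences of Ms4a15, Foxa2, Hmx3, Tph2 and Hoxb8 were 2.86, 2.33, 1.89, 1.36 and 1.30. Their bounds in log2 units were larger, at 4.85, 4.41, 3.56, 2.64 and 2.48. Calcr, the calcitonin receptor, stood at 0.99, 1.21 and 1.03 medially and at -6.93, -3.92, -2.27 and -3.54 laterally (difference 5.24 ± 0.98, adjusted p = 0.0223). The 15 largest lateral differences were smaller in size, from 2.29 to 4.41 (0.76 to 2.56 after normexp), and included Retnla, Plb1, Hspb3, Mas1, Ddn, Kcnh3, Nr4a2, Arpp21 and Chrm1. In all, 1584 probes were higher medially, 4.8% of those tested, and 1260 were higher laterally, 3.82%. The medial calls had a median difference of 0.87 and 221 of them exceeded 2, against a median of -0.68 and 38 laterally. None of the probes past the threshold had its lateral sides on opposite sides of the medial mean. The 3 medial values and the 4 lateral values did not overlap for any called probe. Among all probes tested, 12% had non-overlapping groups with the medial group higher and 19.2% with the lateral group higher.

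Counted as genes, with the probe of highest mean standing for each, 1011 of 15569 genes were higher medially (6.49%) and 745 were higher laterally (4.79%), and the median difference over all genes was -0.06. Restricted to the 14258 genes detected on all 7 arrays, the shares were 5.84% and 4.97%. Fraction 02, the only lateral array on the medial slide, is also one of the arrays that made the calls. Against it alone the median difference was 0.88 for the medially higher probes and -0.66 for the laterally higher ones, which is a description and no separate check of the slide. The block fit used below treats the slide as fixed and takes its difference from fraction 02 alone as well. The other slides of this comparison hold only lateral fractions, and Pou4f2 differed by 7.90 both ways. Block results given here and below therefore concern fraction 02 against the medial fractions, not all 4 lateral fractions. With the slide as a block in the fit, 285 probes were called higher medially and 59 laterally, 251 and 49 of them shared with the first count. The counts also rested on single fractions: they were 531 and 258 without fraction 07, 693 and 412 without fraction 05, 703 and 474 without fraction 06, 906 and 507 without fraction 11, 1072 and 654 without fraction 02, and 1189 and 733 without fraction 01. Without fraction 10 they were 1857 and 1491. Since the groups of every called probe did not overlap, leaving out a fraction or using fraction 02 alone could not reverse a direction. Of the 109 genes and probes that the naming rule selects, between 47 (without fraction 07) and 98 (without fraction 10) were still called with 1 fraction left out, 44 with the slide as a block, and none changed direction.

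**Figure D1:**
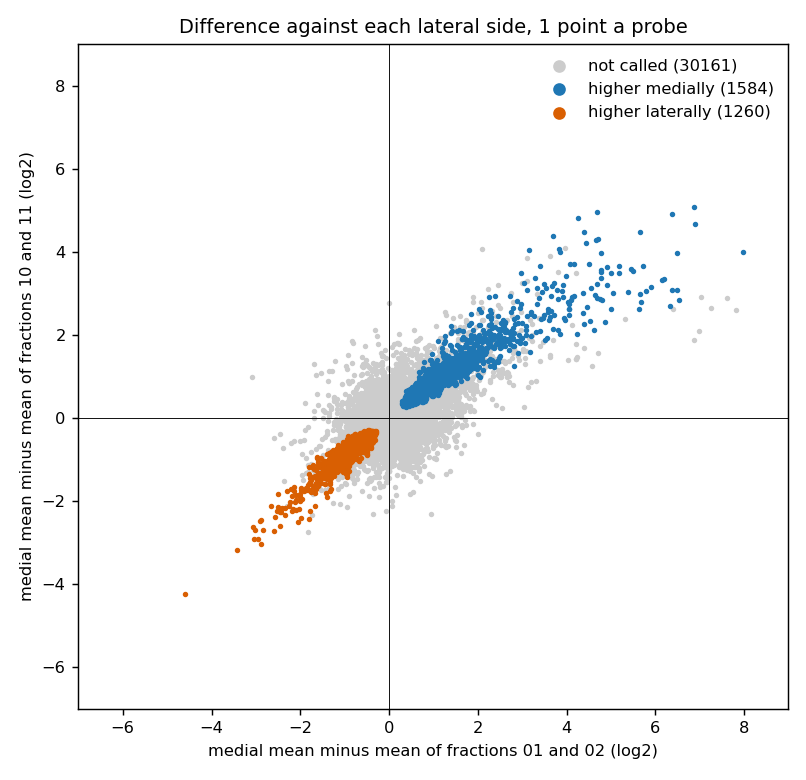
Difference of each tested probe against fractions 01 and 02 (horizontal axis) and against fractions 10 and 11 (vertical axis), both in log2 units with the medial mean shared by both axes; the 1584 probes higher medially are blue, the 1260 higher laterally orange and the rest grey. Called probes lie in the upper right or lower left of the plot, as the rule requires, and the blue cloud reaches further from 0 than the orange one.

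Each side was also set against the medial fractions by itself. Against fractions 01 and 02, 1837 probes passed in either direction (5.57%), and against fractions 10 and 11, 731 passed (2.21%). Both comparisons share the medial fractions. Among the medially higher probes the median difference was 0.92 against fractions 01 and 02 and 0.80 against fractions 10 and 11, and 1221 of the 1584 had the larger difference against fractions 01 and 02. Among the laterally higher probes the medians were -0.74 and -0.64, and 901 of 1260 had the larger size against fractions 01 and 02. In the direct test of the sides against each other, no probe passed (0%), with a lowest adjusted p of 0.123 and 2144 probes at an unadjusted p under 0.05. Other settings of that test gave up to 13 probes.

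All 17 measured hypothalamic genes had higher medial means. The list holds transcription factors that pattern the hypothalamus and the peptides its neurons release, and 3 of its 20 genes did not pass the detection filter. Of the 17, 10 were called higher medially and none laterally. The median difference was 2.31 (2.13 with genes undetected laterally set at their bound, and 1.45 after a normexp background correction). Only 11 of the 17 were detected on all 7 arrays, with 6 of them called and a median of 1.86. The count over all 17 includes genes that passed the filter through the fractions in which they were high, so it is a description only. Hmx3, a homeobox factor of the hypothalamus, stood at -1.73, -0.95 and -1.45 in fractions 05, 06 and 07 and at -6.94, -7.11, -5.79 and -5.92 in fractions 01, 02, 10 and 11. It was not well above background on any lateral array, so its medial level was at least 11.8-fold higher (difference 5.06 ± 0.38, adjusted p = 0.00217). Its neighbour Hmx2 was likewise undetected laterally and at least 8.09-fold higher medially (adjusted p = 0.00511).

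Avp, which encodes vasopressin, stood at 2.11, 1.88 and 2.04 medially and at -3.13, -5.14, -1.65 and -0.99 in fractions 01, 02, 10 and 11. The difference was 4.73 ± 0.91 (adjusted p = 0.0244), and the lateral values spread far more widely than the medial ones. Oxt, the oxytocin gene beside it, falls outside the naming rule and was picked on its values. Its levels were 1.15, 2.09 and 1.27 medially and -3.03, -3.79, -2.56 and -1.70 laterally (difference 4.28 ± 0.49, adjusted p = 0.00497). Pmch, the precursor of melanin-concentrating hormone, stood at 1.05, -1.44 and 0.43 medially and at -5.95, -6.98, -2.76 and -3.35 laterally. Its adjusted p of 0.0467 was the nearest to the limit of the leading genes, and it was called under 9 of 18 other settings.

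Since Avp and Oxt are neighbouring genes read towards each other and both were called medially, the 250 bases before each annotated start are shown, from RefSeq on GRCm38.p6. Oxt lies on the plus strand (chr2:130575919-130576168) and Avp on the minus strand (chr2:130582589-130582838). Capitals mark CAGACATAAA, the longest stretch of letters that both windows hold, found on the gene's own strand.
Oxt: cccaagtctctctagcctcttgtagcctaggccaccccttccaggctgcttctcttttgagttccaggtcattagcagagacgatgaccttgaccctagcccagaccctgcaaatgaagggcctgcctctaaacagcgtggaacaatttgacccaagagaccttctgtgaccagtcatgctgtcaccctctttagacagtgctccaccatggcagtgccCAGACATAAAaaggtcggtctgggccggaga
Avp: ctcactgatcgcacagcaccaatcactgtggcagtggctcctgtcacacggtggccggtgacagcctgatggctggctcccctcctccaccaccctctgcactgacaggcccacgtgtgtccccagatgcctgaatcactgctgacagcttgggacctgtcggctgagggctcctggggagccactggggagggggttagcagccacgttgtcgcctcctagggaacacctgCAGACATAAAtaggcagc
The 10 letters begin 31 bases before the Oxt start and 18 bases before the Avp start. Searched on both strands, they occur in 18 of 32851 windows of this length in the table (0.0548%). The letters were chosen because the Oxt and Avp windows both hold them, so this share is a description only. How often other words of 10 letters occur was not counted. Any part of the stretch in the medial levels was not tested.

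Genes of serotonin and noradrenaline neurons had a list median of 3.85 over the 10 measured (2.69 with bounds, and 1.45 after a normexp background correction), with 4 called higher medially and none laterally. Only 3 of the 10 were detected on all 7 arrays, with a median of 1.14 and none of them called, so the 4 called genes passed the filter through the fractions in which they were high and their count is a description only. Tph2, which makes serotonin in the brain, stood at -3.42, -1.29 and -2.16 in fractions 05, 06 and 07. In fractions 01, 02, 10 and 11 it read -6.95, -7.0, -7.45 and -7.04, and no lateral array detected it, so the medial level was at least 6.25-fold higher (adjusted p = 0.00322). Slc6a4, the serotonin transporter, stood at -0.73, 1.16 and 0.34 medially and at -6.66, -4.26, -3.21 and -3.58 laterally (difference 4.68 ± 0.86, adjusted p = 0.0211). Both were highest in fraction 06, the central one of the 11. The raphe nuclei lie on the midline, and these markers did not go against the labelled medial position. Gata3, a regulator of serotonin and midbrain GABA neurons, differed by 4.42 ± 0.81 (adjusted p = 0.0206). With the slide as a block, Tph2 (adjusted p = 0.0805) and Slc6a4 (adjusted p = 0.0676) missed the threshold.

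The ventral midline and the midbrain contributed further transcription factors. Foxa1 and Foxa2, winged-helix factors of the floor plate and of midbrain dopamine neurons, were among the 27 of 109 named genes and probes called under all 18 other settings. Foxa2 stood at -0.93, 0.04 and -0.70 medially and at -6.80, -7.01, -5.93 and -4.97 laterally, undetected on every lateral array and at least 21.2-fold higher medially (adjusted p = 0.00308). Foxa1 stood at -0.58, 0.35 and -0.52 medially and at -7.06, -7.22, -4.91 and -4.90 laterally (difference 5.78 ± 0.68, adjusted p = 0.0053), detected on 1 of 4 lateral arrays. Shh, the ligand of the hedgehog pathway, differed by 1.34 ± 0.24 (adjusted p = 0.0193), and Nkx6-1, a ventral patterning factor, by 2.78 ± 0.25 (adjusted p = 0.00311). Shh was detected on 1 of 4 lateral arrays and missed the threshold with the slide as a block (adjusted p = 0.117). Of the 11 measured hedgehog and ventral midline genes 4 were called medially, with a list median of 0.53. Over the 9 detected on all 7 arrays, 2 were called, with a median of 0.39.

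Of the 9 measured genes of midbrain dopamine neurons, 6 were higher medially and 1 was higher laterally. Over the 7 genes detected on all 7 arrays, 4 were called medially and 1 laterally, with a median of 0.99. Slc6a3, the dopamine transporter, stood at 1.84, -0.14 and 1.30 medially and at -2.31, -2.86, -1.65 and -1.58 laterally (adjusted p = 0.0153). Th, the rate-limiting enzyme of dopamine synthesis and also a gene of olfactory bulb interneurons, stood at 3.07, 2.90 and 2.70 medially and at 0.36, 0.89, 0.85 and 0.45 laterally (difference 2.25 ± 0.17, adjusted p = 0.00217). Nr4a2, a nuclear receptor needed by dopamine neurons but also made in the claustrum and deep cortex, went the other way, with a difference of -2.38. Slc6a3 missed the threshold with the slide as a block (adjusted p = 0.101).

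Among 9 measured midbrain and colliculus regulators, 7 were higher medially and none laterally, with a median of 2.71. Only 4 of the 9 were detected on all 7 arrays, and these 4 were called, with a median of 2.90. Pou4f2, a POU-domain factor of the superior colliculus, had a wide gap whose size is uncertain, since only 2 of the 4 lateral arrays detected it. It stood at 1.51, 0.85 and 1.36 in fractions 05 to 07, and at -6.80, -6.66, -2.31 and -3.22 in fractions 01, 02, 10 and 11 (difference 5.99 ± 1.16, adjusted p = 0.0246). Fractions 10 and 11 stood well above fractions 01 and 02, the difference was 3.59 after a normexp background correction, and the call was lost without fraction 02, 05, 06 or 07 and without the joined fractions, while the highest difference under the 18 settings was 7.90. Pax7, a marker of the dorsal midbrain, stood at -1.69, -1.48 and -1.47 medially against -6.27, -6.37, -4.65 and -5.18 laterally (adjusted p = 0.00436), and Tfap2b differed by 4.21 ± 0.71 (adjusted p = 0.0158).

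Thalamic and habenular genes were higher medially for 9 of 13 measured, and the list median was 1.79. Over the 10 detected on all 7 arrays, 6 were called medially and 1 laterally, with a median of 1.65. Pou4f1, a POU-domain factor of the habenula and of sensory neurons, stood at 1.26, 1.60 and 1.56 medially and at -3.51, -4.53, -1.88 and -2.24 laterally (difference 4.51 ± 0.61, adjusted p = 0.00808). Tcf7l2, a factor of thalamic neurons, stood at 2.77, 2.57 and 2.68 against -2.11, -2.04, 0.02 and -0.42 (difference 3.81 ± 0.55, adjusted p = 0.00984), and its 3 probes gave differences from 0.93 to 4.06. Slc17a6, the vesicular glutamate transporter of subcortical neurons, differed by 1.79 ± 0.19 (adjusted p = 0.0045). Prkcd, a protein kinase C isoform often used as a marker of sensory thalamus, was the exception and was higher laterally, at -0.08, -0.09 and -0.12 medially and at 1.37, 0.72, 0.63 and 1.17 laterally (difference -1.07 ± 0.19, adjusted p = 0.0182), and it missed the threshold with the slide as a block (adjusted p = 0.183).

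Hindbrain Hox and glycinergic genes numbered 16 measured of 18, of which 9 were called medially and none laterally, with a median of 3.39. No member was detected on all 7 arrays, so each entered through the fractions in which it was high, and the count is a description only. Hoxb8 stood at -2.67, -2.37 and -2.33 medially and at -6.29, -7.11, -7.47 and -7.09 laterally, undetected in all 4 and at least 5.59-fold higher medially (adjusted p = 0.00104). The list's largest differences, Hoxc4 at 5.24 and Hoxb5 at 5.21, were not called. The list was highest in intermediate fraction 09, with a median of 1.91 above the gene's sagittal mean, against 1.64, 1.67 and 1.68 in fractions 05, 06 and 07. Hoxd3 stood apart in fraction 10, at -4.21 against -6.60, -6.77 and -6.69 in the other lateral fractions, and missed the threshold with the slide as a block (adjusted p = 0.121).

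Olfactory bulb genes were detected on all 7 arrays and 7 of 8 were called medially, with a median of 2.28. Tbx21, a T-box factor of mitral and tufted cells, stood at 0.32, -0.21 and -0.26 medially and at -3.93, -4.31, -3.78 and -3.71 laterally (difference 3.88 ± 0.20, adjusted p = 0.000723). Cdhr1, a cadherin of the same output neurons, stood at 2.90, 2.56 and 2.25 against -0.32, -0.47, -0.18 and -0.18 (difference 2.86 ± 0.16, adjusted p = 0.00104). Both lateral sides held nearly the same level of these genes, and both calls held under all 18 other settings. Eomes, which marks mitral cells and cortical intermediate progenitors, differed by 3.18 and was not called (adjusted p = 0.0552), while its second probe was, at 3.47.

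Septal and basal forebrain cholinergic genes were higher medially in 3 of 9 measured, with a median of 2.07 and no gene called laterally. Zic4, a zinc-finger factor of the septum, stood at 2.61, 3.22 and 2.70 medially and at -1.32, -0.38, 1.55 and -0.13 laterally (adjusted p = 0.0321). Slc18a3, the vesicular acetylcholine transporter, differed by 2.60 ± 0.41 (adjusted p = 0.0133), and Slc5a7, which takes up choline, by 2.65 ± 0.51 (adjusted p = 0.0242). The list name does not place the signal of Slc18a3 and Slc5a7. Slc18a3 was highest in intermediate fraction 09, at 1.59. In the coronal series both genes were highest in fraction 3, as was Hoxd3 of the hindbrain list. Which cholinergic cells gave their signal was not tested. With the slide as a block none of the 3 passed (adjusted p from 0.0911 for Slc5a7 to 0.125 for Slc18a3, with 0.114 for Zic4). Among 14 cerebellar genes 1 was called, Ebf2 of Purkinje cells (difference 1.53 ± 0.22, adjusted p = 0.00944), beside 6.49% of all genes called medially.

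**Figure D2:**
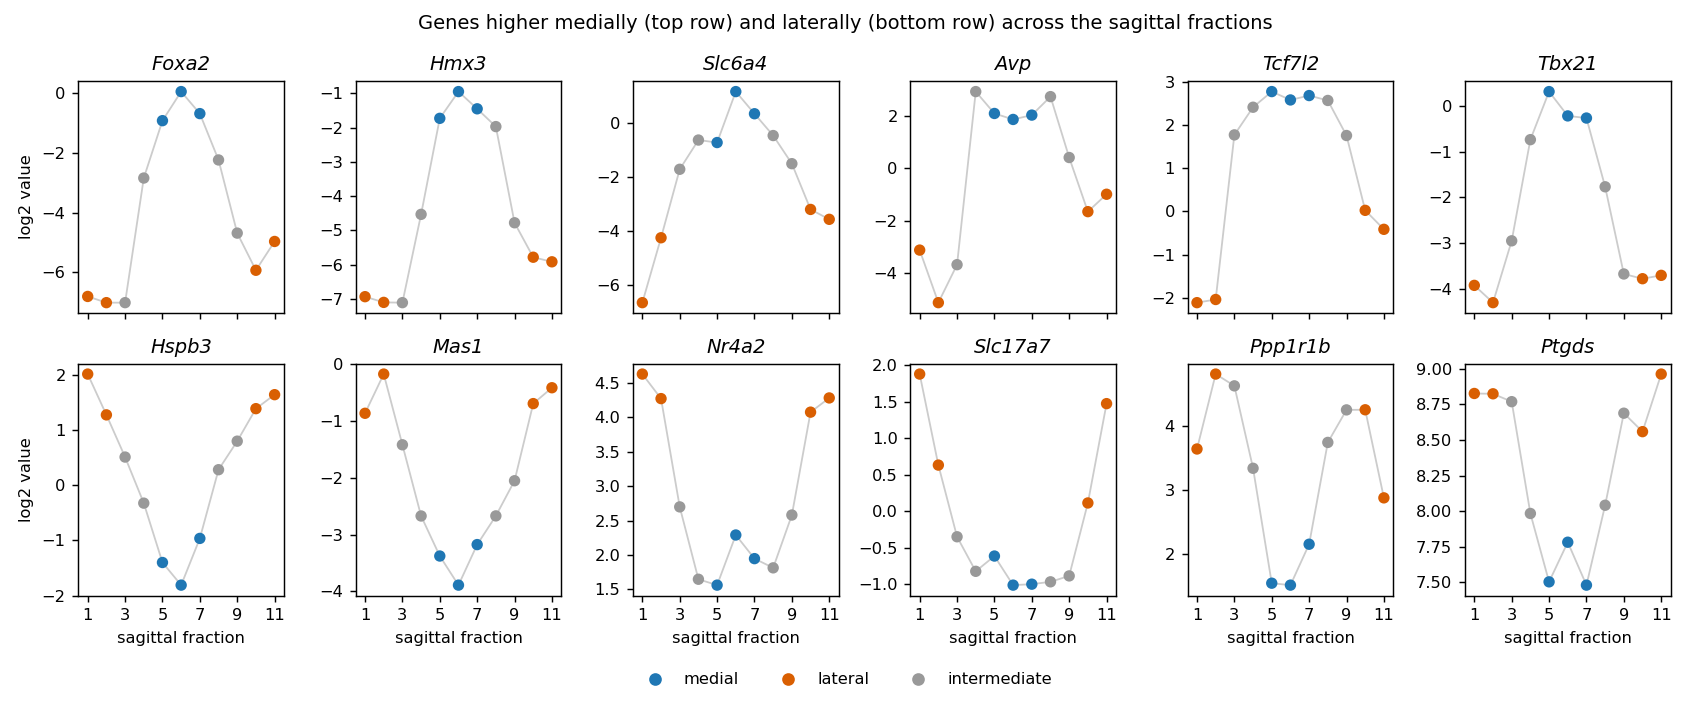
Log2 values of 12 genes in the 11 sagittal fractions, 1 array each, with medial fractions blue, lateral fractions orange and intermediate fractions grey; each panel has its own vertical scale. Foxa2, Hmx3 and Slc6a4 peak in fraction 06 and Avp in fraction 04, while Hspb3, Mas1, Nr4a2, Slc17a7, Ppp1r1b and Ptgds dip in the middle.

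Neurons of the cerebral cortex gave the clearest lateral list. It holds factors that specify cortical projection neurons and the glutamate transporter they use, all 23 genes were detected on all 7 arrays, and 15 were called higher laterally and none medially, with a median of -1.0. Bhlhe22, a factor of upper-layer neurons, stood at 1.38, 1.41 and 1.22 medially and at 2.93, 2.81, 2.79 and 3.02 laterally (difference -1.55 ± 0.10, adjusted p = 0.00139). Emx1, a homeobox factor of the developing pallium, stood at -0.16, -0.73 and -0.02 against 1.99, 1.40, 1.16 and 1.60 (difference -1.84 ± 0.24, adjusted p = 0.00749). Neurod2, a bHLH factor of maturing cortical neurons, differed by -1.37 ± 0.15 (adjusted p = 0.00482). Fezf2 of subcerebral neurons differed by -1.26 ± 0.16 (adjusted p = 0.00661).

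Slc17a7, the vesicular glutamate transporter of cortical neurons, had the largest size of the list, and its lateral values were uneven. It stood at -0.61, -1.01 and -1.0 medially and at 1.88, 0.63, 0.11 and 1.47 in fractions 01, 02, 10 and 11 (difference -1.90 ± 0.41, adjusted p = 0.0354). The outermost fractions were higher than their inner neighbours on both sides. The call was lost without fraction 01, 02, 05, 06, 07 or 11, with differences from -2.20 to -1.25 over the settings tried. With the slide as a block Bhlhe22 passed (adjusted p = 0.0346), while Neurod2 (adjusted p = 0.0569), Fezf2 (adjusted p = 0.0576), Emx1 (adjusted p = 0.104) and Slc17a7 (adjusted p = 0.275) did not.

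Several of the genes with the largest lateral excess were called under all 18 other settings. Hspb3, a small heat shock protein, stood at -1.40, -1.81 and -0.96 medially and at 2.02, 1.28, 1.39 and 1.64 laterally (difference -2.97 ± 0.25, adjusted p = 0.00302). Mas1, the receptor of an angiotensin fragment, stood at -3.38, -3.89 and -3.18 against -0.87, -0.18, -0.70 and -0.42 (difference -2.94 ± 0.22, adjusted p = 0.00217). Ddn, which encodes the postsynaptic protein dendrin, stood at -1.45, -1.64 and -1.46 against 1.55, 1.22, 0.62 and 1.32 (difference -2.70 ± 0.21, adjusted p = 0.00253). These 3 were among them.

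Cr2, a complement receptor, had the smallest standard error of the leading genes. It stood at -2.24, -2.43 and -2.26 medially and at 0.30, 0.25, 0.48 and 0.32 laterally (difference -2.65 ± 0.10, adjusted p = 0.00026), and its 2 probes gave -2.65 and -2.18. Chrm1, the M1 muscarinic receptor, stood at -0.39, -0.99 and -0.49 against 1.89, 1.73, 1.42 and 1.85 (difference -2.35 ± 0.18, adjusted p = 0.00232). Kcnh3, a potassium channel of forebrain neurons, differed by -2.48 ± 0.24 (adjusted p = 0.00342). Arpp21, a phosphoprotein regulated by cyclic AMP, differed by -2.36 ± 0.28 (adjusted p = 0.00558), although its 3 probes ranged from -2.36 to -0.51 and only 2 were called. It stood higher in intermediate fractions 03 and 09 (2.59 and 2.37) than in the outermost fractions 01 and 11 (1.69 and 1.77).

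Retnla, a resistin-like protein secreted by alternatively activated macrophages and other non-neural cells, was the lateral gene of largest difference. It was undetected on all 3 medial arrays, at -7.24, -6.93 and -7.11, and stood at -3.59, -1.41, -1.67 and -4.06 in fractions 01, 02, 10 and 11. Its lateral level was at least 5.30-fold higher (difference -4.41 ± 0.67, adjusted p = 0.0116), and the inner lateral fractions held more of it than the outer ones. It was highest outside the lateral group, at -0.97 in intermediate fraction 09. Plb1, a phospholipase, stood at -5.50, -5.60 and -4.83 medially and at -1.62, -2.14, -2.32 and -1.93 laterally (difference -3.31 ± 0.24, adjusted p = 0.00193). Of the other leading lateral genes, Syce3 (a meiotic protein), Wfdc18, Krt12 (a keratin), Alkal2 (a ligand of the receptor kinase ALK) and Rprml had differences of -2.96, -2.84, -2.77, -2.53 and -2.29. With the slide as a block Wfdc18, Krt12 and Alkal2 missed the threshold (adjusted p = 0.119, 0.1 and 0.265), as did Retnla, Syce3 and Kcnh3 (adjusted p = 0.0666, 0.0696 and 0.0697).

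Genes of the amygdala, claustrum and piriform cortex split. Of 12 measured, 3 were called laterally and 1 medially, with a median of -0.14. Nr4a2 stood at 1.56, 2.29 and 1.95 medially and at 4.63, 4.27, 4.08 and 4.28 laterally (difference -2.38 ± 0.20, adjusted p = 0.00302), and both of its probes were called. Ntng2, a netrin-G ligand that marks the claustrum, differed by -1.32 ± 0.27 (adjusted p = 0.0291, and 0.273 with the slide as a block). Dlk1, an imprinted membrane protein also made in the hypothalamus, was the gene against the majority, at 2.93, 3.43 and 3.00 medially and 0.23, 0.76, 1.15 and 0.87 laterally (difference 2.37 ± 0.23, adjusted p = 0.00355).

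Striatal genes were called laterally in 4 of 16 measured and medially in none, with a median of -0.32 that was -1.08 against fraction 02 alone. Ppp1r1b, the dopamine-regulated phosphoprotein of medium spiny neurons, stood at 1.55, 1.52 and 2.16 medially and at 3.64, 4.82, 4.26 and 2.88 laterally (difference -2.16 ± 0.44, adjusted p = 0.0295). Drd1, a dopamine receptor of the same neurons, stood at -1.59, -2.26 and -1.56 against -0.60, 0.26, -0.14 and -0.99 (adjusted p = 0.0394). For both genes the inner lateral fractions 02 and 10 were higher than the outermost fractions 01 and 11. Adora2a, an adenosine receptor of striatal neurons, differed by -1.94 and was not called (adjusted p = 0.0779), and Pde10a, at an adjusted p of 0.05 as rounded, was called under 7 of 18 other settings. None of the 4 called genes passed with the slide as a block (adjusted p from 0.0947 for Ppp1r1b to 0.117 for Drd1).

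Interneuron regulators and markers went both ways, with 3 called medially and 2 laterally of 16. Npy, a peptide of cortical and striatal interneurons, stood at 3.27, 3.55 and 3.57 medially and at 5.55, 4.98, 4.67 and 4.93 laterally (difference -1.57 ± 0.21, adjusted p = 0.00762), and Sst, encoding somatostatin, differed by -1.26 ± 0.18 (adjusted p = 0.01). Sp8, a zinc-finger factor of olfactory interneurons, differed by 2.30 ± 0.30 (adjusted p = 0.00758), although its second probe gave 0.14 and was not called. Sst (adjusted p = 0.149) and Sp8 (adjusted p = 0.126) missed the threshold once the slide was a block. In the activity-regulated list, 4 of 12 were higher laterally, led by Egr4 at -0.81, -0.97 and -1.15 medially and 0.47, 0.95, 0.24 and 0.28 laterally (difference -1.46 ± 0.19, adjusted p = 0.00726). Egr2, Egr1 and Fosb, further transcription factors induced by neuronal activity, differed by -1.26, -0.95 and -0.68 (Egr2 and Fosb missed the threshold with the slide as a block, at adjusted p of 0.216 and 0.233), while Fos and Arc, at 0.29 and -0.32, were not called. Hippocampal genes had a median of 0.01, with Prox1 of dentate granule cells (1.40) and C1ql2 (2.65) called medially, neither of them with the slide as a block (adjusted p = 0.354 and 0.127).

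**Figure D3:**
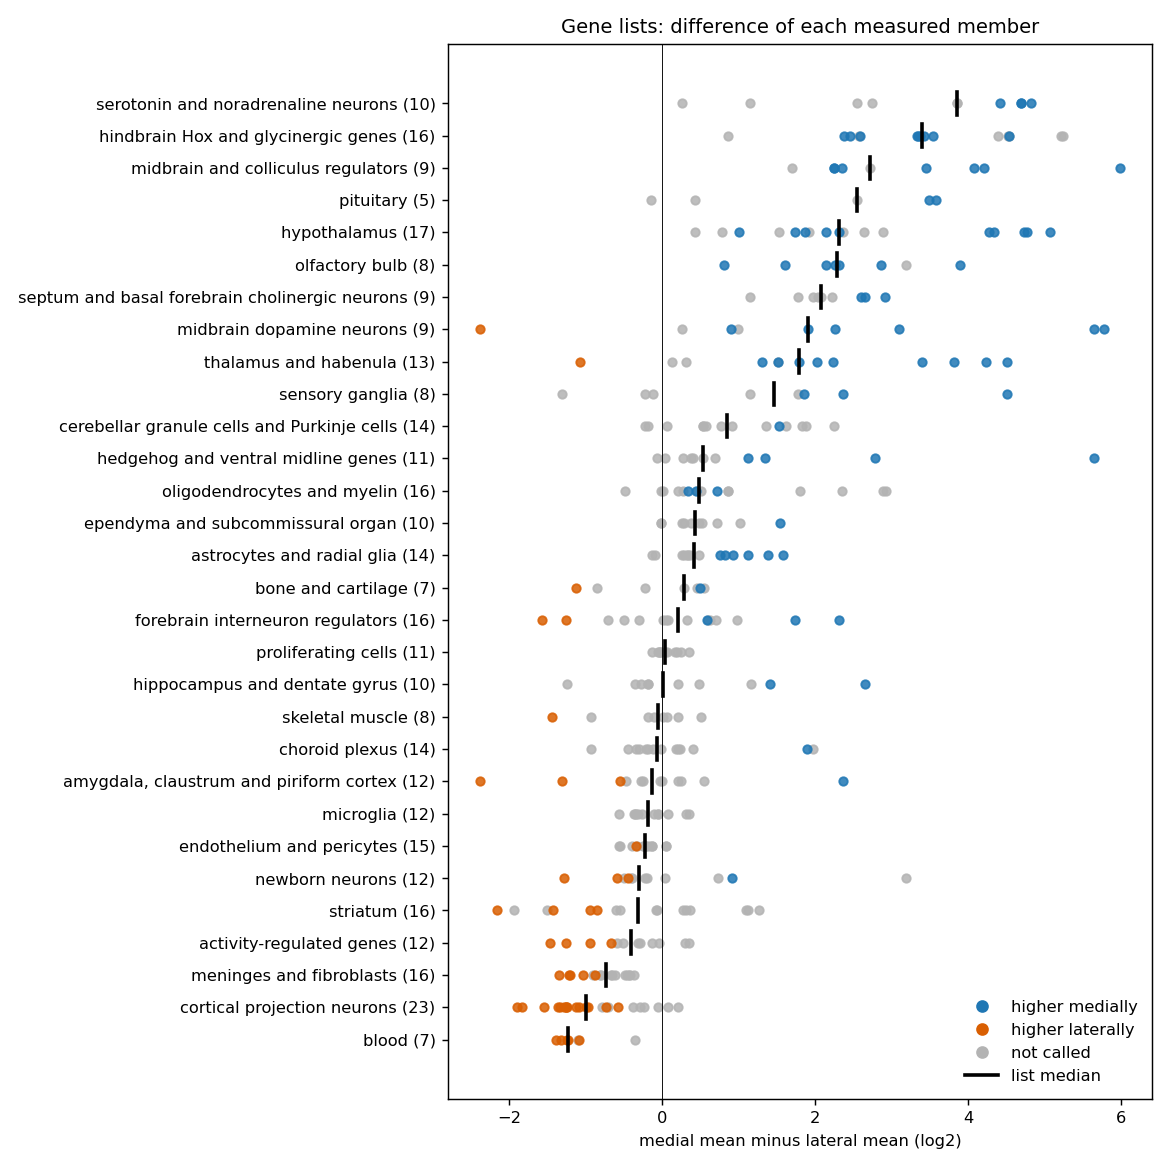
Medial minus lateral difference (log2, horizontal axis) of every measured member of 30 gene lists, ordered by list median (black bar), with the number measured in brackets; blue members were called higher medially, orange ones laterally and grey ones not called. Brainstem, hypothalamic, olfactory bulb and thalamic lists lie to the right, and cortical, meningeal and blood lists to the left.

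Astrocyte and oligodendrocyte lists had medial medians of small size. The microglial median was slightly lateral over the 4 lateral fractions, but 0.16 against fraction 02 alone and 0.07 without the joined fractions 01 and 11. In astrocytes and radial glia, 6 of 14 genes were higher medially than laterally and none the other way, with a median of 0.42. S100b, a calcium-binding protein, led them at 2.93, 2.96 and 2.91 against 0.90, 1.02, 2.00 and 1.51 (adjusted p = 0.0149). It was highest in intermediate fraction 09, at 3.21. The astrocyte and oligodendrocyte lists were also highest in fraction 09, with medians of 0.25 and 0.37 above the gene's sagittal mean. Slc6a11, a GABA transporter of astrocytes, differed by 1.12 ± 0.13 (adjusted p = 0.0053). Among 16 oligodendrocyte genes 3 were called medially, Gpr17 (0.71), Sox10 (0.44) and Mbp (0.33, 1 of its 3 probes, which ranged from 0.24 to 1.33). No gene of the 11 for proliferating cells or the 12 for microglia was called, with medians of 0.03 and -0.18. In the newborn neuron list, Tbr1 (-1.29) and Dcx (-0.45) were among the genes higher laterally, and Neurog2 (0.91) was higher medially. None of the named oligodendrocyte and newborn neuron genes passed with the slide as a block (adjusted p from 0.22 for Gpr17 to 0.317 for Dcx).

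Tissue over the brain surface and blood moved with the lateral group. All 16 measured meningeal and fibroblast genes had lower medial means, 5 were called laterally, the list median was -0.74, and their summed linear level ran from 255 to 342 medially and from 506 to 676 laterally. Ptgds, the prostaglandin D synthase of the leptomeninges, stood at 7.50, 7.78 and 7.48 medially and at 8.83, 8.82, 8.56 and 8.96 laterally (difference -1.21 ± 0.13, adjusted p = 0.00443). Slc22a6 and Slc13a4, meningeal transporters, differed by -1.36 and -1.22. In blood, 5 of 7 measured genes of 11 were called laterally, all of them globins, with differences from -1.39 (Hba-a1) to -1.09 (Hbb-b2), and the summed level ran from 29.7 to 43.2 medially and from 57.4 to 132 laterally. Globin copies are near-identical, so their probes cannot be told apart with certainty. None of the 5 called meningeal genes (adjusted p from 0.0872 for Ptgds to 0.364 for Slc22a6) and none of the 5 globins (from 0.177 for Hbb-b2 to 0.277 for Hba-a1) passed with the slide as a block. Whether these tissues take part in the lateral calls was not tested.

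Other tissues were near their floor or uneven. Choroid plexus levels varied between neighbouring fractions. Ttr, the main protein it secretes, stood at 5.83, 7.26 and 6.91 medially and at 6.70, 7.00, 7.46 and 6.34 laterally, and the list's summed level ran from 83.6 to 205 medially and from 107 to 225 laterally. Over all genes, 6.49% were called medially and 4.79% laterally, and single calls in the lists of this paragraph are no result about a tissue. Of 14 choroid plexus genes 1 was called (Prlr, 1.89), and of 10 ependymal genes 1 (Fam183b, 1.53). Among 15 endothelial and pericyte genes, Slco1c1 was called at -0.35, with a median of -0.23. Pituitary markers that define the gland, Gh, Prl, Cga and Tshb among them, did not pass the detection filter, while Lhx3, which is also made in the brain, was higher medially by 3.48. Of the sensory ganglion genes Avil and Mrgprd did not pass the filter, and Pou4f1, Isl2 and Prph were called medially, the last at 0.99, 0.34 and 1.22 against -1.35, -1.01, -0.70 and -0.93. Muscle markers Ckm, Mylpf, Myog and Myod1 did not pass the filter, and only Actn2 was called of 8, at -1.44. In bone and cartilage Comp, undetected medially, was called laterally and Acan medially (0.49). Of the genes called in this paragraph, Prlr and Actn2 also passed with the slide as a block (adjusted p = 0.046 and 0.0143), Pou4f1 did as above, and the others did not.

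**Figure D4:**
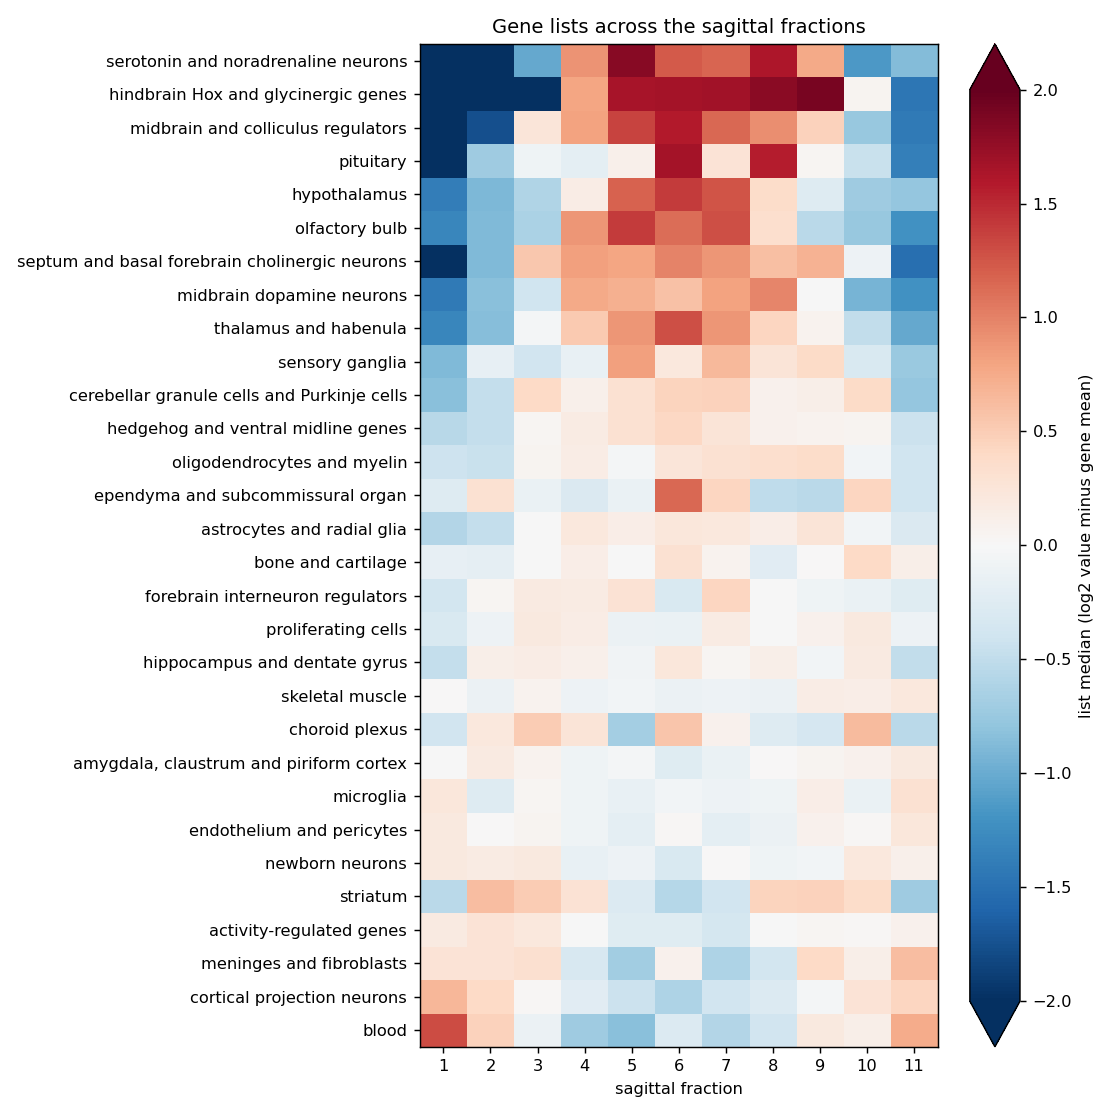
Median over the members of each list of the log2 value minus the gene's mean over the 11 sagittal fractions, coloured from -2 (blue) to 2 (red); fraction numbers run along the horizontal axis. The hypothalamic, thalamic and midbrain and colliculus lists are highest in fraction 06 and the midbrain dopamine list in fraction 08. The hindbrain, astrocyte and oligodendrocyte lists are highest in fraction 09, the cortical and blood lists in fraction 01 and the meningeal list in fraction 11.

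Long non-coding RNAs were also on the array. Of 6088 such probes tested, 135 were higher medially (2.22%) and 134 laterally (2.2%), beside 5.38% and 4.18% of the other 26917, a difference that was not tested. The 3 largest medial differences came from probes to a single interval, chr2:33500594-33501874 on the forward strand of mm9. They were A_30_P01026088 (3.80 ± 0.64, adjusted p = 0.0162), A_30_P01032763 (3.10 ± 0.45, adjusted p = 0.00999) and A_30_P01026417 (2.93 ± 0.41, adjusted p = 0.00858). The last stood at 0.89, 1.44 and 0.52 medially and at -2.19, -2.83, -1.14 and -1.76 laterally. At the lateral end the 3 leading probes, A_30_P01031710, A_30_P01026991 and A_30_P01019429, were undetected on every medial array, and the first was detected on only 2 of the 4 lateral arrays. They were at least 1.47-fold, 1.97-fold and 2.78-fold higher laterally, and their intervals lie at chr19:53517903-53540753, chr8:130666467-130821034 and chr3:18521534-18522194, all on the reverse strand. None of these 3 passed with the slide as a block (adjusted p of 0.11, 0.197 and 0.0974), nor did A_30_P01032763 (0.0523).

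The called probes were then followed into fractions that the test did not use. In the 4 intermediate sagittal fractions (03, 04, 08 and 09), the mean lay between the medial and lateral means for 1484 of the 1584 medially higher probes (93.7%) and for 1219 of the 1260 laterally higher probes (96.8%), while 85 of the medial probes had a higher mean there than in the medial fractions. These probes were chosen for a gap between the groups, and the intermediate fractions lie between the groups in the same brain. The shares are a description only, and the share over all tested probes is not given here. Pmch was highest in fraction 08 and Avp in fraction 04. In the coronal series of another mouse, the medially higher probes were highest on the median in fraction 4 (0.61 above the probe's mean) and lowest in fraction 13 (-0.56), and the laterally higher probes ran the other way, with -0.44 in fraction 4 and 0.43 in fraction 13. In the horizontal series of a further mouse, the medially higher probes went from -0.33 in fraction 2 to 0.28 in fraction 7, and the laterally higher probes from 0.24 in fraction 2 to -0.12 in fraction 5. The coronal and horizontal numbers were not matched to brain regions.

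**Figure D5:**
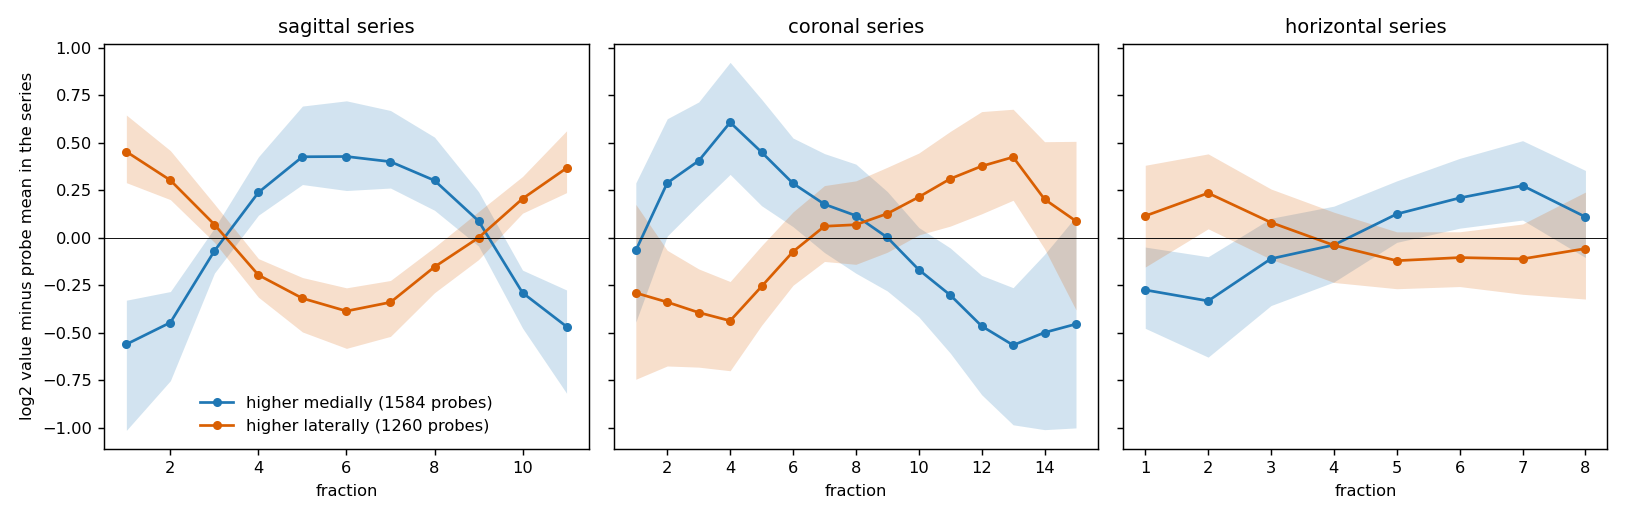
Median (line) and interquartile range (band) of the log2 value minus each probe's mean in the series, for the 1584 probes higher medially (blue) and the 1260 higher laterally (orange), along the sagittal, coronal and horizontal fractions. The sagittal panel shows the fractions that chose the probes, and in the coronal panel the sets cross between fractions 8 and 9, and in the horizontal panel near fraction 4.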

How the data were processed

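The authors scanned single-colour Agilent arrays and processed them with Feature Extraction 10.10.1.1 per the file headers. They deposited intensity values for each spot (processed signal, median signal and median background) with spot flags, and separately log2 values for a subset of probes. Subtracting 1 number per array, close to its 75th percentile, from the log2 of the processed signal gave the deposited log2 value within 0.02 for at least 99.9% of probes on every array. No spot was saturated.

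From the deposited log2 values, limma 3.58.1 in R 4.3.3 compared 3 medial with 4 lateral sagittal fractions (lmFit and eBayes, 5 residual and 2.15 prior degrees of freedom, Benjamini-Hochberg over 33005 probes). A fit with each side as a group gave the side tests. Tested on simulated data for this comparison over 33005 probes, 57 of 100 planted log2 differences of 1 and 87 of 100 of 2 were recovered, with 9 false calls. The simulated arrays varied independently, with no slides and no graded positions, so these rates may not hold for the real fractions. Of 55681 probes that are not controls, 26582 were matched to a gene symbol through RefSeq accessions (GRCm38.p6, used for names). Non-coding RNA intervals were read from the probe annotation in the deposited files (mm9). Where 1 group was undetected, the bound sets the bright group's mean against the higher of the dim probe's value and the lowest detected signal of each array. Such bounds are on the deposited scale and may not hold after a normexp background correction.

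Genes named are the 15 of largest called difference at each end detected on every array of the higher group, up to 4 called members of each of 30 lists with any against the majority, and 3 non-coding probes at each end. Some genes that this rule names are not reported here. The members and lists were chosen with earlier results of these data known. Gene families in the closing section were chosen after their values were seen. Alternatives were other scalings, a normexp background correction, stricter and no filter, limma-trend, all 11 sagittal fractions, no joined fractions, slide blocks, each side by itself and each fraction left out. The 18 settings counted for a named gene leave out the test of each side by itself.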

Additional observations from a re-analysis of the deposited data

Results flagged for a closer look

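In 4 lateral fractions, the value farthest from the others was set against the range of the group for 141 results, and 6 stood apart, where chance gives about 1 in 20. Hoxd3 stood at -4.21 in fraction 10, above the other lateral fractions. Slc6a11 in fraction 01 (0.62) and Acan in fraction 11 (-3.04) stood below theirs. The other 3 were list medians of log2 values less the gene's mean over the 7 fractions. They were the amygdala, claustrum and piriform list in fraction 01 (-0.0599), the oligodendrocyte list in fraction 10 (0.0572) and the bone and cartilage list in fraction 10 (0.43). No probe passed the test of the lateral sides against each other at an adjusted p under 0.05 in limma, with 2144 at an unadjusted p under 0.05 and 13 called by limma-trend.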

How the results depend on the processing

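No probe called changed direction under any of the settings tried. Where fractions were left out, a side stood by itself or the slide was a fixed block, non-overlapping groups fixed this in advance. Changing only the filter or the variance model, or adding the intermediate fractions, leaves the difference as it was. The other scalings and the normexp background correction left the direction free. The counts did move. Against 1584 probes higher medially and 1260 higher laterally, a normexp background correction gave 2412 and 2033, limma-trend 2101 and 2576, and all 11 sagittal fractions in the fit 2529 and 3358. Testing without a detection filter gave 1139 and 658, the fit without the joined fractions 01 and 11 gave 681 and 334, the slide as a fixed block 285 and 59, the slide as a random block 1287 and 811, and a test of each side by itself 496 and 182. With 1 fraction left out, the counts ran from 531 to 1857 medially and from 258 to 1491 laterally. Medial calls were 55.7% of the total, 44.9% under limma-trend, 43.0% with all 11 fractions and 82.9% with the slide as a fixed block. The scalings (processed signal, median centring, quantile) kept both counts within 1.5 times. The count of probes that differ between the lateral sides was 0, 1 with normexp and 13 with limma-trend. Under normexp the sizes of the 15 leading medial genes ran from 1.30 to 3.69, against 4.51 to 5.99, and those of the leading lateral genes from 0.76 to 2.56, against 2.29 to 4.41. Of 150 recomputed list medians 10 moved by more than the spread between fractions, 9 of them under normexp, none with a change of sign. The cause of these moves was not tested. No paired analysis was possible because the medial and lateral fractions share no replicate numbers. The number of arrays, 1 for each fraction of 1 brain, limits the precision, and signals near background are bounds only.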

Other observations

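Gene families were counted by symbol after the values had been seen, beside 6.49% of all genes called medially and 4.79% laterally. All 6 measured Iroquois factors, Irx1 to Irx6, which pattern the midbrain and hindbrain, were called higher medially, with a median difference of 3.91, and so were 12 of 21 Hox genes (median 3.42), with none laterally. Of 12 LIM homeobox genes 6 were called medially (Isl2, Lhx1, Lhx3, Lhx4, Lhx5 and Lhx9) and 1 laterally, Lhx2, a factor of the cortical primordium. All 3 measured Egr genes were called laterally.

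Receptor and channel families had few calls, to be read beside the same shares over all genes. Single calls in families this small are a description and no result about the family. Among 9 nicotinic receptor subunits, Chrna3, Chrna4 and Chrna6 were called medially and none laterally. Of 4 muscarinic receptors Chrm2 was called medially and Chrm1 laterally, of 11 serotonin receptors Htr7 medially and Htr3a laterally, and of 12 GABA-A receptor subunits Gabrg1 medially and Gabrd laterally. Among 58 potassium channel alpha subunits 9 were called medially and 6 laterally, with a median of 0.04.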
